A study of Mus musculus with 3 samples.

Results

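The genes described here are 32 members of the glycolysis and hypoxia response programme, followed through 7 cell classes of mouse lung in 3 single-cell libraries. They were chosen by name, from what they are known to do, out of 31054 features in the count tables, and all 32 were found. Earlier results of these data were known when they were chosen. Their levels were read in cells sorted into classes by a few marker genes each. The first library came from lungs of conditional knockout mice that had been irradiated and also received a drug. The second came from lungs of irradiated wild-type mice, and the third from lungs of wild-type mice without irradiation, the control. The gene removed, the Cre driver, the drug, the radiation dose, the interval after it, the age of the mice and how many were used are not given in the labels. A dTomato sequence stands among the features and had 957, 489 and 3455 unique molecular identifiers (UMIs, each a counted transcript) in these libraries, although the labels speak of no reporter. Genotype and drug were changed together in the first library, so their effects cannot be told apart. There was 1 library per group, so no difference below has a replicate check, and no test was made.

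Glycolysis splits glucose into pyruvate in the cytoplasm: transporters bring glucose in, a fixed order of enzymes cuts and oxidises it, and lactate dehydrogenase turns pyruvate into lactate when respiration cannot use it. Most of these genes are also targets of the hypoxia-inducible factors, whose oxygen-sensitive subunits are encoded by Hif1a and Epas1 (HIF-2 alpha). When oxygen is plentiful, the prolyl hydroxylases of the Egln genes mark these subunits for destruction. Epas1 is best known in the lung from endothelial cells, and activated and dividing lymphocytes are known to turn up glycolysis without a lack of oxygen.

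Hypoxia-inducible factors bind short DNA words, ACGTG and, less often, GCGTG, so the starts of the genes on which the results turn are shown first. RefSeq start sites on GRCm38.p6 gave windows of 300 bases, from 250 before to 50 after the start, for 29 of the 32 genes. Capitals mark every ACGTG or GCGTG read on either strand (CACGT and CACGC are the same words on the other strand). A palindrome such as CACGTG counts once on each strand. Ankrd37 and Bnip3 are shown because they had the largest differences in endothelial cells. Aldoa is the enzyme called higher in aerocytes, and Ldha is shown for the number of words in its window. Hk2 is shown as an enzyme with ratios of opposite sign in different cell classes. Pgk1 is shown as a gene called higher in dividing T cells of 1 library. Each window is written 5′ to 3′ on the strand of its gene.

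Ankrd37, chr8:45999801-46000100, minus strand: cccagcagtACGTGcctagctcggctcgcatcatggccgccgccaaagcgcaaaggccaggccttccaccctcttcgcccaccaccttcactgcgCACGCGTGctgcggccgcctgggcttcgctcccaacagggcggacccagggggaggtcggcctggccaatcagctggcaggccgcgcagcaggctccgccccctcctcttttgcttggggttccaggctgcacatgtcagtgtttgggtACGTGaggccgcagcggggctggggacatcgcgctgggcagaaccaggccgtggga

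Bnip3, chr7:138909457-138909756, minus strand: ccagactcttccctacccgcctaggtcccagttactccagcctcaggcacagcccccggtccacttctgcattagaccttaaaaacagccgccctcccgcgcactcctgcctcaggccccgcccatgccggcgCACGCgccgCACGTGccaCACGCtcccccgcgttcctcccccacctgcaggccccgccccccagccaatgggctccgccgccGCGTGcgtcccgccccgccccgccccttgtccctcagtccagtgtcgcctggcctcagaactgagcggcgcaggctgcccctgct

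Aldoa, chr7:126799205-126799504, minus strand: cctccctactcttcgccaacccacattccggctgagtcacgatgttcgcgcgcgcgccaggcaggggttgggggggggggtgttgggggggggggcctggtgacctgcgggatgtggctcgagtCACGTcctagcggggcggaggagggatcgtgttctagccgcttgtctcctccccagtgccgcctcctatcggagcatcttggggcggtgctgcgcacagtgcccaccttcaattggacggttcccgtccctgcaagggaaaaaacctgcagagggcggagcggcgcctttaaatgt

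Ldha, chr7:46845554-46845853, plus strand: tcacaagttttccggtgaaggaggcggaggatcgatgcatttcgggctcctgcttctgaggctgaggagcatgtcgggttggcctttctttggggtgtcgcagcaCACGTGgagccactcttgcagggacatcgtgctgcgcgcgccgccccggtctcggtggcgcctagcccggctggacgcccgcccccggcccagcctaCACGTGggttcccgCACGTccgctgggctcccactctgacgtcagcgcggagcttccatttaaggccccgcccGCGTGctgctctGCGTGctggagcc

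Hk2, chr6:82774405-82774704, minus strand: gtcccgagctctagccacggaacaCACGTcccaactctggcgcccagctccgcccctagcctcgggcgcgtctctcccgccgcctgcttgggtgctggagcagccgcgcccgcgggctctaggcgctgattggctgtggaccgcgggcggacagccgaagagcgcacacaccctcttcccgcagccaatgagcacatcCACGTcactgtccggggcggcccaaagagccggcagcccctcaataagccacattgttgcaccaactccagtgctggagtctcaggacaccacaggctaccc

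Pgk1, chrX:106186850-106187149, plus strand: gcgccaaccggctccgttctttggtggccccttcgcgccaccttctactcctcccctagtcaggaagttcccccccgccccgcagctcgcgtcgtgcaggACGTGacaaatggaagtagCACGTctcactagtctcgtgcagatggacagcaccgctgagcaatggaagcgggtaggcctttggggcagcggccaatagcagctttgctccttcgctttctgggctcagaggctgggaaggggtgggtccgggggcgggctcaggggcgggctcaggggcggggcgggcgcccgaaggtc

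The Ankrd37 window held 2 ACGTG and 2 GCGTG words, and the Bnip3 window held 2 and 3. The first Ldha window held 5 ACGTG and 2 GCGTG words, more than any other window printed here, while Hk2 and Pgk1 held 2 ACGTG words each and the Aldoa window 1. Over the list, ACGTG stood in 24 of 42 windows (57.1%), against 19.6% of all 32851 windows of this length. GCGTG also stood in 24 of 42, against 32.4% of all windows. At least 1 of the words was found in 27 of the 29 genes, against 46.7% of 27025 genes. The windows of the list were also richer in G and C, with a median of 62.8% against 52.7% over all windows, and the part of base composition in these shares was not tested. A match is a run of letters, not a shown binding site.

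The cells came from 11292, 7084 and 15485 barcodes with 76667310, 45800421 and 85984536 UMIs in the knockout and drug, irradiated wild-type and non-irradiated libraries, and every barcode had at least 500 UMIs. After a minimum of 250 genes and a maximum of 15% mitochondrial UMIs, 9886, 5805 and 13091 cells were kept, at a median of 6070.5, 5706 and 4899 UMIs. Levels are given as CPM, a gene's UMIs scaled to the same total in each class and library, with 95% exact Poisson intervals that cover counting error only. The irradiated wild-type library stood apart in the sex of its cells. Cells of male type, with a Y-linked UMI and no Xist, made up 27.5% of its kept cells. They made up 0.273% in the knockout and drug library and 0.00764% in the non-irradiated library. In the irradiated wild-type library 1595 cells were of male type, 3005 had Xist without a Y-linked UMI, 243 had both and the rest neither. RNA of other cells also differed in level. Sftpc, an alveolar type 2 gene, stood in T cells at 290.3 and 84.2 CPM in the knockout and drug and irradiated wild-type libraries and at 2669 CPM in the non-irradiated library, and 3.04%, 2.13% and 10.8% of the T cells passed the gate of another lineage. Whether it came from free RNA or doublets was not tested. Between 18 and 32 barcodes of kept cells were shared by each pair of libraries.

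Classes were taken by marker UMIs. T cells had at least 2 UMIs of Cd3d, Cd3e and Cd3g together and numbered 5103, 2674 and 1859 in the knockout and drug, irradiated wild-type and non-irradiated libraries, and 1649, 851 and 397 of them also had a Trdc UMI. B cells (at least 2 Cd79a UMIs) numbered 763, 571 and 1425, NK cells (a Ncr1 UMI and no Cd3d, Cd3e or Cd3g) 463, 339 and 318, and fibroblasts (at least 2 Col1a1 and Col1a2 UMIs) 963, 424 and 3950. Cells with at least 5 UMIs of C1qa, C1qb and C1qc numbered 52, 11 and 69. Aerocytes, capillary cells specialised for gas exchange, were taken by at least 2 Car4 UMIs and 1 Ednrb UMI and numbered 56, 38 and 310. Every gene of each class's own marker list was detected in each of the 3 libraries. In the main values, medians over the list are given only where both libraries of a pair had at least 50 cells. That left the C1q and aerocyte cells of the irradiated wild-type library without one. Alternative choices of cells kept the classes that passed this with all their cells, even where fewer than 50 remained.

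Most of the list was well covered. In T cells 31, 30 and 30 of the 32 genes had at least 30 UMIs in the knockout and drug, irradiated wild-type and non-irradiated libraries, and in aerocytes 19, 11 and 27. Car9, a carbonic anhydrase known as a strong hypoxia marker, was almost absent, with 7, 0 and 2 UMIs in T cells and 0 in the aerocytes and NK cells of every library. Summed over the list, T cells had 3140, 3446 and 3087 CPM, fibroblasts 2812, 2730 and 2819 CPM, and B cells the lowest sums of the classes, 2049, 1795 and 2048 CPM. Aerocytes had the highest sums, 5228, 6462 and 5736 CPM, of which Epas1 gave 1814, 2879 and 3512 CPM.

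**Figure D1:**
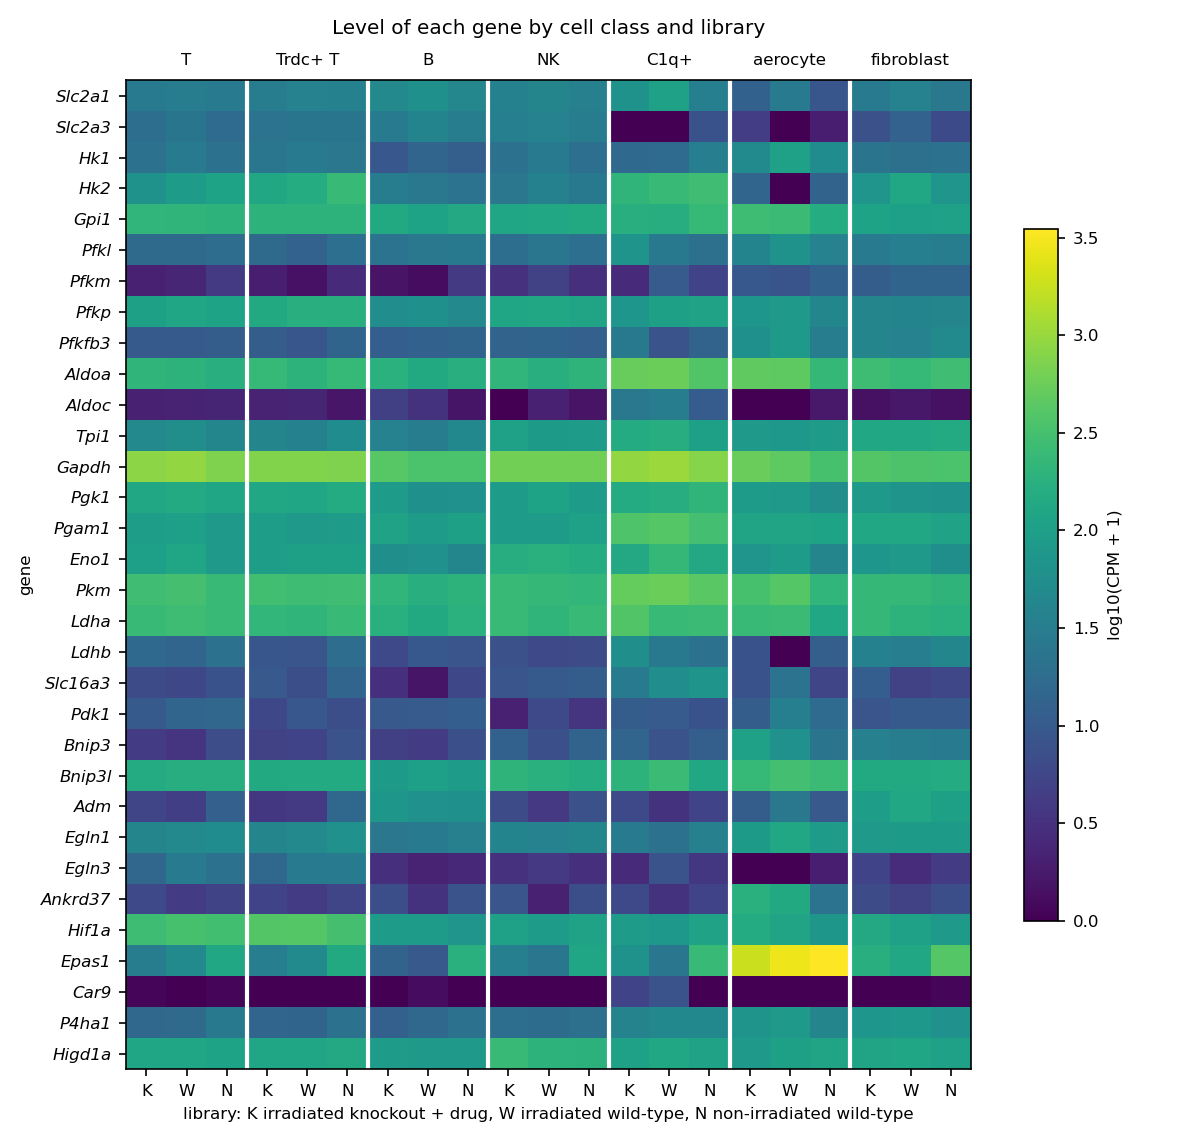
Level of each of the 32 genes as log10(CPM + 1) by colour, in 7 cell classes (blocks) and 3 libraries (columns within a block: K irradiated knockout and drug, W irradiated wild-type, N non-irradiated wild-type). Epas1 is brightest in aerocytes, where it had 1814, 2879 and 3512 CPM, and Car9 is dark in nearly every column.

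Differences between libraries were read as log2 ratios of CPM with 5 CPM added on both sides, for genes with at least 30 UMIs in the library with more of them. A gene is called higher or lower below when this ratio was at least 2-fold and the library with the higher CPM had at least 30 UMIs. Across the 7 classes, the knockout and drug library against the non-irradiated one gave 6 combinations of gene and class that were higher and 8 that were lower. The irradiated wild-type library against the non-irradiated one gave 0 higher and 6 lower, over 5 of the classes. Between the 2 irradiated libraries, 0 combinations were higher and 0 lower. The comparisons with the control share the non-irradiated library.

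These counts stand beside the share of all genes that met the same rule. For the knockout and drug library over the non-irradiated one, genes called higher made up 0.239% of all genes tested in T cells, 0.303% in Trdc+ T cells, 0.537% in B cells, 0.653% in NK cells and 0.808% in fibroblasts. Genes called lower made up 4.21%, 6.53%, 7.83%, 2.66% and 1.09% in the same classes. For irradiated wild-type over non-irradiated, genes called higher made up 0.701%, 0.644%, 0.556%, 1.05% and 0.587%, and genes called lower 5.23%, 7.64%, 7.57%, 7.09% and 1.81%. Lower genes were thus the more frequent kind in these classes in both. Between the knockout and drug and the irradiated wild-type library, 0.295%, 0.509%, 0.658%, 4.09% and 0.943% were higher and 0.156%, 0.343%, 0.98%, 0.749% and 0.329% lower. All higher combinations of the knockout and drug library over the non-irradiated one lay in C1q+ cells and aerocytes. There 11.8% and 1.99% of all genes tested were called higher and 8.71% and 6.99% lower. Of the list, 13.6% of 22 genes tested in C1q+ cells and 13.0% of 23 in aerocytes were called higher. The plot of ratios by class shows all genes of the list.

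**Figure D2:**
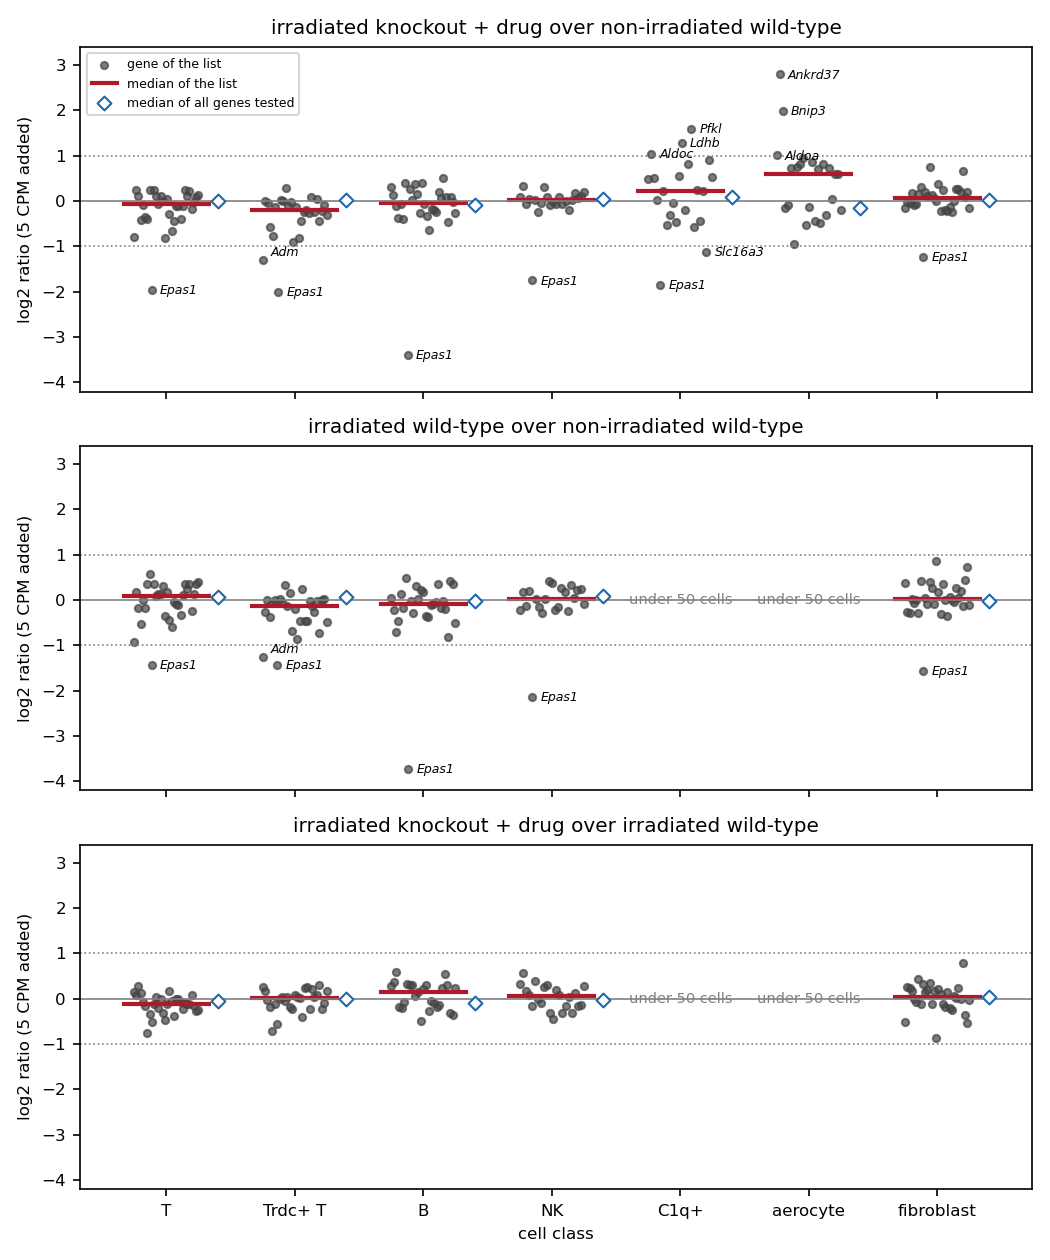
Log2 CPM ratio (5 CPM added) of each gene of the list with at least 30 UMIs, by cell class, for the 3 pairs of libraries, with the median of the list (red bar) and of all genes tested (diamond); dotted lines mark 2-fold. Ankrd37 and Bnip3 stand highest, in aerocytes of the knockout and drug library at 2.79 and 1.99, Epas1 stands lowest, in B cells at -3.40 and -3.73, and no gene passes the dotted lines in the lowest panel.

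Glucose entry is served by Slc2a1 (GLUT1), the widespread transporter, and Slc2a3 (GLUT3), a high-affinity one. Neither was called in any class or pair. In T cells Slc2a1 had 27.5, 31.2 and 28.0 CPM in the knockout and drug, irradiated wild-type and non-irradiated libraries, values that lie close together. B cells had more of it, 45.8, 58.5 and 42.7 CPM, and aerocytes little, at 11.8, 28.9 and 7.82 CPM from 7, 8 and 31 UMIs. Slc2a3 made up 39.4%, 42.1% and 37.3% of the UMIs of the pair in T cells and 48.1%, 47.8% and 47.2% in NK cells. In fibroblasts its share was 19.7%, 24.8% and 17.0%, below the lymphocytes in each library. In C1q+ cells it had 0 UMIs in both irradiated libraries and 6.89 CPM in the non-irradiated library from 5 UMIs. Counts of 0 allow up to 2.51 and 7.02 CPM there at 3 UMIs, or 3.08 and 8.63 CPM by the exact interval.

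Hexokinase traps glucose inside the cell, and the share of its genes differed by class. Hk1, the constitutive form, made up 77.8%, 100% and 80.9% of the UMIs of Hk1 and Hk2 in aerocytes (28, 29 and 207 UMIs of Hk1), against 6.82%, 6.19% and 10.0% in C1q+ cells, where the inducible form Hk2 held the rest. Fibroblasts had 68.9 CPM of Hk2 in the knockout and drug library (interval 63.8 to 74.4), 129 CPM in the irradiated wild-type library (119 to 140) and 68.5 CPM in the non-irradiated library (65.8 to 71.4). The irradiated wild-type library was thus the high one, and the intervals of the other libraries overlap each other. The log2 ratio was 0.87 for irradiated wild-type over non-irradiated and -0.86 for knockout and drug over irradiated wild-type, both under 2-fold. The share of Hk1 moved the other way, to 12.9% in the irradiated wild-type library, with 24.2% in the knockout and drug and 23.2% in the non-irradiated library. The Hk2 UMIs were not in a few cells, since the 3 cells with most held 8.10%, 13.8% and 2.40% of them. Cells of male type made up 10.1% of the irradiated wild-type fibroblasts. With female cells only and under every other alternative, the wild-type ratio stayed between 0.59 and 0.91.

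In Trdc+ T cells Hk2 went in the other direction: 133 CPM in the knockout and drug library, 155 CPM in the irradiated wild-type library and 251 CPM in the non-irradiated library. Both irradiated libraries lay below the control, by log2 ratios of -0.90 and -0.68, which is under 2-fold. T cells as a whole had 62.6, 88.3 and 114 CPM. The share of Hk1 in the pair was 15.3% in both irradiated libraries and 8.87% in the control. NK cells had 24.6, 35.6 and 26.2 CPM of Hk2, and the 3 intervals overlap.

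The next enzymes rearrange and phosphorylate the sugar. Gpi1, the glucose-6-phosphate isomerase, lay close together in the T cells of the 3 libraries, with 212, 207 and 194 CPM, and highest in the aerocytes of the irradiated libraries, with 281, 260 and 157 CPM. Phosphofructokinase commits the sugar to glycolysis, and its platelet-type gene Pfkp held 86.1%, 87.7% and 84.7% of the UMIs of the 3 genes in T cells and 89.6%, 93.1% and 89.5% in Trdc+ T cells. In fibroblasts Pfkp held 51.6%, 45.8% and 47.7%, with most of the rest from the liver-type gene Pfkl. Pfkm, the muscle-type gene, was rare throughout, at most 13.1 CPM in any of the 7 classes. Pfkfb3 makes fructose 2,6-bisphosphate, the activator of phosphofructokinase, and was seen mainly in aerocytes, with 58.9, 79.5 and 31.0 CPM, and fibroblasts, with 40.7, 36.2 and 47.9 CPM.

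The C1q+ cells had the only called difference at this step. Pfkl had 68.5 CPM in the knockout and drug library (82 UMIs), 25.7 CPM in the irradiated wild-type library (11 UMIs) and 19.3 CPM in the non-irradiated library (14 UMIs). The knockout and drug value was 3.02-fold above the non-irradiated one with 5 CPM added (log2 1.60). Its share of the 3 genes was 48.2%, against 18.6% in the irradiated wild-type and 14.6% in the non-irradiated library. Among all genes tested in this class and pair, 11.8% were called higher and 8.71% lower, so calls were common there. With every cell given the same weight the log2 ratio was 0.88, and with cells thinned to 1000 UMIs 0.35, both short of a call.

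Aldoa, the aldolase that splits the sugar, had 205, 193 and 171 CPM in T cells and 280, 234 and 283 CPM in fibroblasts. Its 2 feature IDs were summed. Aldoc, the brain-type aldolase, was near 0 outside the C1q+ cells, where it had 25.1, 30.4 and 9.65 CPM. That difference was called in the knockout and drug library (log2 1.04), from 30 and 7 UMIs, but 3 cells held 66.7% of the 30 UMIs. The lower glycolytic enzymes differed by under 2-fold between libraries. In T cells Gapdh had 852, 928 and 723 CPM, Pgk1 133, 145 and 122 CPM and Pkm 291, 317 and 247 CPM, so the irradiated wild-type library was highest and the non-irradiated one lowest for each. Tpi1 (triose phosphate isomerase), Pgam1 (phosphoglycerate mutase) and Eno1 (enolase) followed the same order in T cells. Among classes of at least 50 cells Eno1 was highest in NK cells in all 3 libraries, with 160.5, 179 and 155 CPM, while in the irradiated wild-type library the 11 C1q+ cells had 227 CPM.

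Pyruvate is turned to lactate mostly by Ldha, while Ldhb favours the reverse step. Ldha had 251, 273 and 242 CPM in T cells and 228, 197 and 175 CPM in fibroblasts. The share of Ldhb among the UMIs of the pair was 13.3%, 13.95% and 19.1% in fibroblasts and 3.48%, 3.50% and 6.85% in Trdc+ T cells, lower in both irradiated libraries than in the control in each. In C1q+ cells Ldhb had 57.6, 25.7 and 20.7 CPM from 69, 11 and 15 UMIs, a called difference between the knockout and drug and the non-irradiated library (log2 1.29). There 3 cells held 65.2% of the 69 UMIs, and with every cell given the same weight the log2 ratio was 0.11. Slc16a3 (MCT4), which exports lactate, went the other way in these cells, with 28.4, 53.8 and 67.5 CPM from 34, 23 and 49 UMIs, and was called lower in the knockout and drug library (log2 -1.12). Pdk1, which holds back the oxidation of pyruvate in mitochondria, was low, with 9.12, 13.4 and 14.01 CPM in T cells.

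The C1q+ cells differed between libraries in more than these genes. Their median depth was 11982.5, 28819 and 6862 UMIs per cell. Genes of alveolar type 2 and airway cells summed to 17554 CPM in the knockout and drug library, all 6 of them detected, against 98.2 CPM in the irradiated wild-type library with 3 of 6 at 0 (Sftpb, Lamp3 and Epcam), and 976 CPM in the non-irradiated library with 1 at 0 (Epcam). The alveolar macrophage list summed to 1370, 7010 and 391 CPM, with Fabp1 and Krt79 at 0 in both irradiated libraries. Of the 52 knockout and drug cells, 12 also passed the gate of another lineage, against 1 of 11 and 11 of 69. Their part in the C1q results was not tested. The median over 22 genes was 0.23, beside 0.09 over all genes tested. Of the other targets of hypoxia-inducible factors 8 could be tested there, with 2 called higher and 3 lower in the knockout and drug library against the control. Pfkfb4, a relative of Pfkfb3, had 33.4 CPM, against 2.76 CPM from 2 UMIs in the control (log2 2.31 with 5 CPM added, and a counting interval of 1.65 to 6.69 for the ratio without them), and Ddit4, an inhibitor of mTORC1, had 8.35 CPM, against 45.5 CPM (log2 -1.92). Hk3, the 1 other glycolysis enzyme tested there, was called higher, with 56.8 CPM, against 22.1 CPM in the control (log2 1.19).

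Endothelial cells held the calls with the largest ratios upward. In aerocytes of the knockout and drug library, 3 of the 23 genes tested were called higher than in the non-irradiated library, Ankrd37, Bnip3 and Aldoa, and 0 lower. That is 13.0% of them, beside 1.99% of all 7120 genes tested that were called higher and 6.99% that were called lower. The median over the 23 genes was 0.60 on the log2 scale, against -0.16 over all genes. Of the 23 genes 14 lay above 0, beside 30.2% of all genes. All 3 called genes were also above the control in the 38 aerocytes of the irradiated wild-type library, which were too few for a call. Without cells in 2 lineage gates, 7 of 20 genes were called higher (Gapdh, Eno1, Ldha and Hif1a in addition) and 1 lower, Epas1. Without Scrublet doublets 5 of 22 were called higher and Epas1 again lower.

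Ankrd37, an ankyrin repeat gene known as a direct target of hypoxia-inducible factors, had 177 CPM in knockout and drug aerocytes (interval 145 to 214), 141 CPM in irradiated wild-type aerocytes (100 to 193, from 39 UMIs) and 21.2 CPM in non-irradiated ones (16.9 to 26.2). The intervals of both irradiated libraries lie above that of the control and overlap each other. The log2 ratio was 2.79 for the knockout and drug library over the non-irradiated one, or 6.94-fold with 5 CPM added. The 3 cells with most held 37.1%, 66.7% and 17.9% of the UMIs, so the irradiated wild-type value rests on few cells. UMIs were found in 24 of 56, 11 of 38 and 57 of 310 cells, and after thinning every cell to 1000 UMIs in 9.43%, 13.9% and 1.33%. In fibroblasts and T cells the gene was low: fibroblasts had 5.69, 4.05 and 6.01 CPM and T cells 5.15, 3.30 and 4.33 CPM. In vM21 it lies on chromosome 8, from 45996902 to 46005707 on the minus strand.

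Bnip3 encodes a mitochondrial outer membrane protein that drives mitophagy and is known as a hypoxia target. It had 104 CPM in knockout and drug aerocytes (80.0 to 134), 61.4 CPM in irradiated wild-type aerocytes (35.8 to 98.3) and 22.4 CPM in non-irradiated ones (18.03 to 27.6), so again both irradiated values lie above the control. The log2 ratio to the control was 1.99 in the knockout and drug library, where 21 of 56 cells had a UMI and 3 cells held 48.4% of the UMIs. Its relative Bnip3l (Nix) did not follow, with 236, 303 and 264 CPM. Bnip3 therefore made up 30.7% of the UMIs of the pair in the knockout and drug library and 16.8% in the irradiated wild-type library, against 7.83% in the control. In fibroblasts that share was 19.4%, 17.3% and 16.3%.

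Among the enzymes in aerocytes, Aldoa had 471, 459 and 232 CPM and was just past 2-fold (log2 1.01, and between 0.49 and 1.23 under the alternatives). Ldha had 247, 256 and 135 CPM, Gapdh 550.4, 466 and 323 CPM, and Pkm 323, 408 and 212 CPM. In each of these the irradiated libraries lie together and above the control. Hif1a itself had 150, 116 and 74.9 CPM (log2 0.95). Tpi1, with 79.1, 75.9 and 90.8 CPM, Pgam1, with 116, 116 and 112 CPM, and Higd1a, a small hypoxia-induced mitochondrial protein, with 80.8, 101 and 118 CPM, did not share that gap. P4ha1, a collagen prolyl hydroxylase, had 67.3, 79.5 and 39.6 CPM, and Egln1, the main oxygen sensor, 84.2, 126 and 89.8 CPM. The plot of endothelial levels sets the genes side by side.

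**Figure D3:**
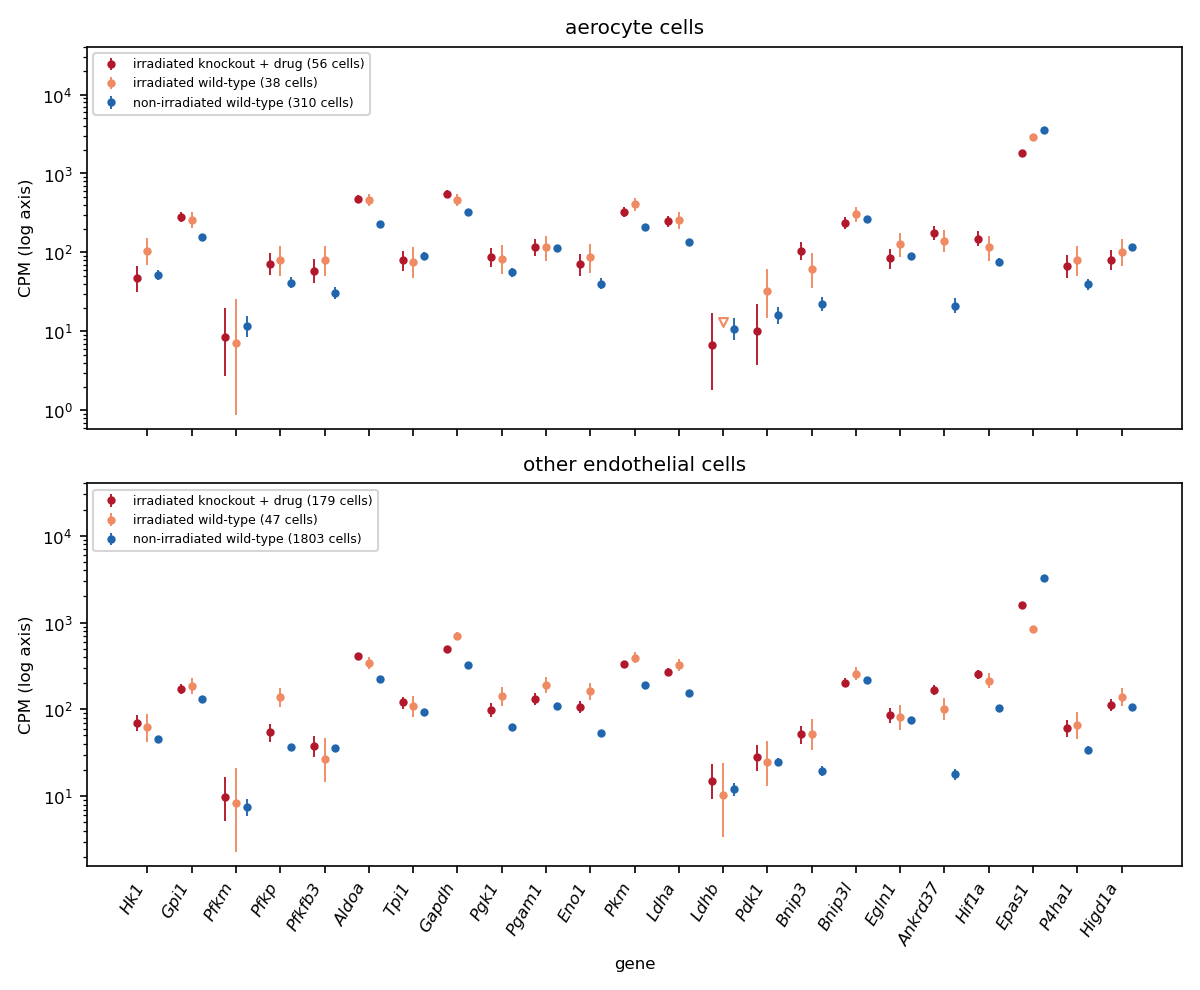
CPM (log axis) of the 23 genes tested in aerocytes, with 95% Poisson intervals, in aerocytes (top) and other endothelial cells (bottom) of the 3 libraries; an open triangle is the upper limit for 0 UMIs. For Ankrd37, Bnip3, Aldoa and Hif1a both irradiated libraries stand above the non-irradiated one in both panels, and Epas1 stands below it.

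The aerocyte gate took in other cells too, and unevenly. A list of 4 basophil or mast cell genes summed to 1525 CPM in the knockout and drug aerocytes, with all 4 detected, against 3.61 CPM and 1 detected in the irradiated wild-type library and 0 in the non-irradiated one. NK genes summed to 555 CPM, against 25.3 and 99.9 CPM, and genes of alveolar type 2 and airway cells to 325 and 202 CPM, against 3332 CPM in the control. The 8 genes of C1q+ macrophages summed to 114 and 166 CPM in the irradiated libraries, against 106 CPM in the control. Of these 8 genes 3 and 2 were detected in the irradiated libraries, with C1qa, C1qb and C1qc at 0, and all 8 in the control. Genes of dividing cells summed to 183 CPM in the knockout and drug aerocytes, against 3.61 and 8.83 CPM. Endothelial genes outside the aerocyte list summed to 4666 and 4580 CPM in the irradiated libraries, against 6404 CPM in the control. Plvap, one of them, had 72.4 and 105 CPM, against 552 CPM. Red cell genes summed to 131 and 54.2 CPM, against 2814 CPM. The part of these in the aerocyte values was not tested. With only the 40 and 273 aerocytes that had a Cdh5 or Pecam1 UMI and no Ptprc, Ankrd37 stood at 3.17, Bnip3 at 1.96 and Aldoa at 1.23, against 2.79, 1.99 and 1.01 with all aerocytes, while the median over the list was 0.089 on 17 genes. This choice of cells was made after seeing the data.

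Endothelial cells outside the aerocyte gate (at least 2 Cdh5 UMIs) are a second set of cells from the same 3 libraries, with 179, 47 and 1803 cells and none of the basophil or mast cell genes in the irradiated libraries. Other markers did differ. The list of endothelial genes of this class summed to 4068 and 2401 CPM in the irradiated libraries, against 5926 CPM in the control, T cell genes to 557 and 202 CPM, against 164 CPM, and neutrophil genes to 1026 and 8.34 CPM, against 499 CPM. Genes of C1q+ macrophages summed to 77.8 and 336 CPM, against 95.5 CPM. The part of these cells in the values was not tested. Here 1.73% of all genes were called higher and 2.99% lower in the knockout and drug library against the non-irradiated one. Ankrd37, Bnip3 and Hif1a were the members called higher, 3 of 25, and Epas1 the one called lower. Ankrd37 had 168 CPM (146 to 191), 102 CPM (75.6 to 135) and 17.9 CPM (15.5 to 20.5), a log2 ratio of 2.92 for the knockout and drug library over the control. Hif1a had 252, 215 and 104 CPM (log2 1.24), and Bnip3 51.3, 52.2 and 19.6 CPM (log2 1.19). In each of the 3 genes both irradiated libraries stand above the control. Aldoa had 410.0, 344 and 222 CPM and Ldha 270, 323 and 154 CPM, both high in the irradiated libraries and under 2-fold. The median over the 25 genes was 0.56, against -0.08 over all genes. Of the 25 genes 21 lay above 0, beside 38.0% of all genes.

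Genes of the same pathway outside the list were counted in aerocytes as well. Of 16 other targets of hypoxia-inducible factors, 10 could be tested in the knockout and drug library against the control, 4 were called higher and 2 lower, and their median was 0.85. Bhlhe40, a transcriptional repressor, had 273 CPM, against 86.8 CPM in the control (log2 1.60). Vegfa, the endothelial growth factor, went the other way, with 79.1 CPM in the knockout and drug and 97.5 CPM in the irradiated wild-type library, against 245 CPM in the control (log2 -1.57 for knockout and drug). Among 6 regulators of these factors, 3 could be tested and 1 was higher, Cited2, which competes with the factors for their coactivator, with 293 CPM against 45.9 CPM (log2 2.55), but 3 cells held 89.1% of its 174 UMIs in the knockout and drug library. It had 18.1 CPM in the irradiated wild-type aerocytes, below the control. Of the 16 other glycolysis enzymes 1 was tested, of the 9 genes of pyruvate entry 6 and of the 6 genes of the pentose phosphate path 5, and 0 of these were called.

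Epas1 stood below the non-irradiated library in both irradiated libraries in all 7 classes. It was called lower in T, Trdc+ T, B and NK cells and fibroblasts of both irradiated libraries against the non-irradiated one, and in the C1q+ cells of the knockout and drug library. No other gene of the list was called lower in more than 1 of the 7 classes. B cells had 12.3 and 8.78 CPM of Epas1 in the knockout and drug and irradiated wild-type libraries, against 178 CPM in the non-irradiated library (log2 -3.40 and -3.73). T cells had 30.9 and 46.4 CPM, against 134 CPM (log2 -1.95 and -1.43). Fibroblasts had 169 and 134 CPM, against 407 CPM (log2 -1.24 and -1.57).

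The level of Epas1 was set beside that of 3 genes of endothelial cells, Cldn5, Cdh5 and Pecam1, in the same cells. Together these had 55.0 and 43.9 CPM in T cells of the knockout and drug and irradiated wild-type libraries, against 250.4 CPM in the non-irradiated library, and 38.8 and 35.4 CPM in B cells, against 335 CPM. Epas1 UMIs per UMI of these 3 genes were 0.562, 1.06 and 0.534 in T cells and 0.318, 0.248 and 0.530 in B cells, beside 0.262, 0.359 and 0.485 in aerocytes. With all 3 genes the T cell ratio was nearly equal in the knockout and drug and non-irradiated libraries and higher in irradiated wild-type. But Pecam1 gave 1654 of 2315 and 819 of 944 of these UMIs in irradiated T cells, against 1211 of 3645 in control. In B cells it gave 154 of 217 and 115 of 121, against 651 of 2732. Cldn5 had 9.31 and 3.16 CPM in irradiated T cells, against 107 CPM, and 5.01 and 1.17 CPM in B cells, against 168 CPM. In irradiated T and B cells the ratios thus rest mostly on Pecam1, and ratios without it were not taken. When cells with a high doublet score were left out, the log2 ratio in T cells was -0.92 for the knockout and drug and -0.33 for the irradiated wild-type library, and in NK cells -0.26 and -0.41. The ratios were then -1.03 and -0.39 in Trdc+ T cells, -0.52 and -0.95 in fibroblasts and -0.68 in the C1q+ cells of the knockout and drug library. The calls that remained were those in B cells (log2 -2.70 and -2.75) and in Trdc+ T cells of the knockout and drug library. Fibroblasts had 1.499 and 3.12 Epas1 UMIs per endothelial UMI in the irradiated libraries, against 0.760 in the control, so their Epas1 did not keep one ratio to the endothelial genes. The part of free or doublet RNA in these differences was not tested.

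In the endothelial cells themselves Epas1, which lies on chromosome 17 from 86753700 to 86833410 on the plus strand (GRCm38), was read from far more UMIs. Aerocytes had 1814 CPM in the knockout and drug library (1708 to 1926), 2879 CPM in the irradiated wild-type library (2682 to 3086) and 3512 CPM in the non-irradiated library (3454 to 3570). No intervals overlap, but the log2 ratio of the knockout and drug library to the control, -0.95, is short of 2-fold. It was called lower without cells in 2 lineage gates (log2 -1.28, 47 knockout and drug cells) and without Scrublet doublets (log2 -1.07, 48 cells). Other endothelial cells had 1591, 839 and 3228 CPM, and there the knockout and drug value was called lower (log2 -1.02). The order of the irradiated libraries thus differed between the kinds of endothelial cell. The plot of Epas1 against the endothelial genes shows both groups of points.

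**Figure D4:**
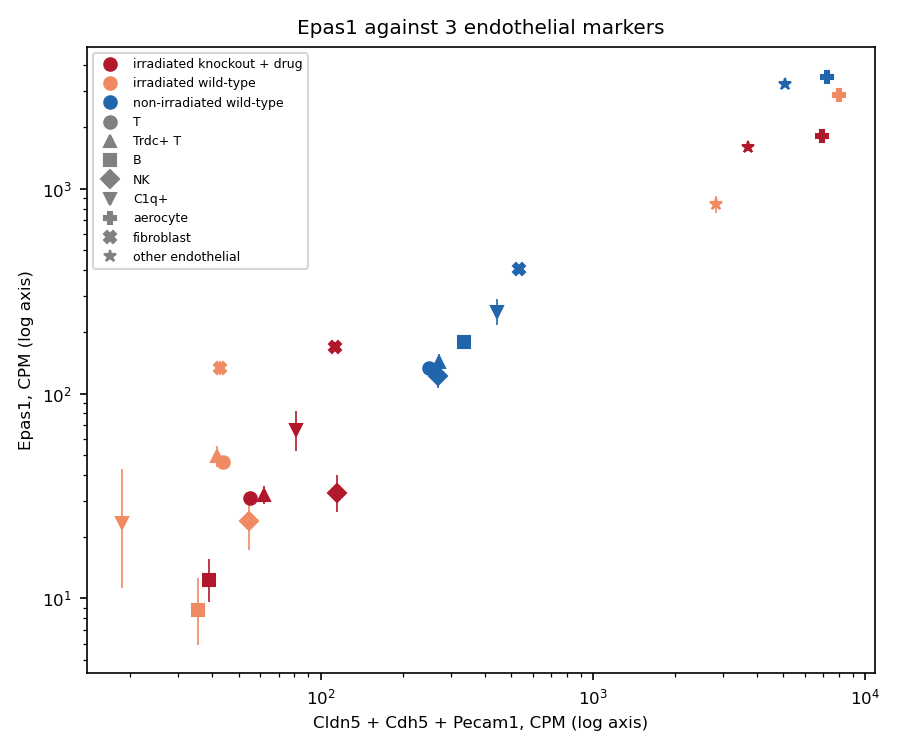
Epas1 CPM (with 95% Poisson intervals) against the summed CPM of Cldn5, Cdh5 and Pecam1, log axes, by cell class (symbol) and library (colour). T, B and NK cells of the non-irradiated library lie near 250 to 335 CPM of the endothelial genes and 122 to 178 CPM of Epas1, those of the irradiated libraries lie lower on both axes, and endothelial cells stand apart at the upper right.

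Hif1a, the other oxygen-sensitive subunit, behaved differently. Trdc+ T cells had the highest level in every library, 391, 406 and 320.3 CPM, followed by T cells as a whole with 282, 323 and 293 CPM. B cells had 91.6, 87.2 and 69.3 CPM and NK cells 106, 88.8 and 109 CPM. Fibroblasts had 138, 107 and 79.9 CPM, with both irradiated libraries above the control and log2 ratios of 0.75 and 0.40, under 2-fold. Neutrophil genes in these fibroblasts summed to 2682 CPM in the knockout and drug library, all 4 detected, and 56.7 CPM in the irradiated wild-type library, with Csf3r at 0, against 272 CPM in the control, and their part in the fibroblast values was not tested. It was called in none of the 7 classes. The share of Epas1 among the UMIs of both subunits in fibroblasts was 55.2% and 55.5% in the irradiated libraries, against 83.6% in the control.

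The hydroxylases differed by class. Egln1 was spread over all classes, with 80.2, 84.2 and 83.7 CPM in fibroblasts and 40.3, 46.0 and 52.6 CPM in T cells. Egln3, itself a hypoxia target, was mainly a T cell gene here, with 13.9, 26.8 and 19.8 CPM in T cells and at most 7.02 CPM in any other of the 7 classes apart from Trdc+ T cells. Its share of the UMIs of the pair in T cells was 25.7% in the knockout and drug library, 36.8% in the irradiated wild-type library and 27.4% in the non-irradiated library. The interval of the irradiated wild-type share, 34.4% to 39.2%, lies above those of the other libraries.

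Adm encodes adrenomedullin, a vessel-dilating peptide induced by hypoxia. It was highest in fibroblasts in all 3 libraries, with 92.2, 134 and 102 CPM, and next in B cells, with 74.4, 60.9 and 59.3 CPM. In Trdc+ T cells it was low and called lower in both irradiated libraries, with 2.77 and 2.96 CPM from 34 and 18 UMIs, against 14.2 CPM from 44 UMIs (log2 -1.30 and -1.27). Without cells of high doublet score both ratios were -0.56 and no longer called. Higd1a stood highest in NK cells, with 240.1, 194 and 191 CPM. Fibroblasts had 33.8, 29.7 and 29.2 CPM of Bnip3 and 71.8, 77.7 and 60.2 CPM of P4ha1, values within 2-fold of each other.

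Read over the whole list, the medians of lymphocytes and fibroblasts shifted little, but in Trdc+ T cells most genes lay below the control. For the knockout and drug library over the non-irradiated one, the median log2 ratio was -0.07 over 30 genes in T cells (0.01 over all genes), -0.21 over 26 in Trdc+ T cells (0.03), -0.04 over 28 in B cells (-0.08), 0.02 over 22 in NK cells (0.04) and 0.08 over 30 in fibroblasts (0.03). For irradiated wild-type over non-irradiated it was 0.10, -0.14, -0.10, 0.02 and 0.02 in the same classes, beside 0.07, 0.07, -0.03, 0.09 and -0.02 over all genes. Each of these medians lay within 0.25 of that of all genes. Genes above 0 numbered 12 of 30, 5 of 26, 13 of 28, 13 of 22 and 18 of 30 for the knockout and drug library. The shares over all genes were 51.4%, 54.6%, 37.9%, 56.3% and 55.5%. For irradiated wild-type they numbered 16 of 30, 7 of 27, 10 of 27, 12 of 21 and 17 of 30. The shares over all genes were 60.6%, 57.3%, 46.9%, 58.7% and 46.7%. Between the knockout and drug and the irradiated wild-type library the medians were -0.12, 0.02, 0.15, 0.06 and 0.04. Genes above 0 numbered 7 of 30, 15 of 27, 14 of 25, 12 of 22 and 16 of 30 in that pair. The shares over all genes were 39.1%, 47.8%, 40.2%, 46.7% and 58.5%. The largest single ratios were 0.80 and -0.86, both in fibroblasts.

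Few genes of the wider pathway were called in these classes, and 0 of the pyruvate entry, pentose phosphate and regulator lists. Fibroblasts of the knockout and drug library had 40.9 CPM of Slc16a1 (MCT1), a lactate and pyruvate transporter, against 14.9 CPM in the control (log2 1.21), the 1 call among 15 tested of the 16 other targets, in the cells with the neutrophil genes given above. In T cells Bhlhe40 had 1041 CPM in the irradiated wild-type library, against 501 CPM in the non-irradiated one (log2 1.05), the 1 higher call among 14 targets tested. Bpgm, which makes 2,3-bisphosphoglycerate, had 54.0 CPM in NK cells of the knockout and drug library, against 15.8 CPM in the irradiated wild-type library (log2 1.501). Red cell genes summed to 15103 CPM in the same NK cells, all 5 detected, against 85.4 CPM and 4 of 5 detected (Alas2 at 0), and their part in the Bpgm value was not tested. In the irradiated wild-type library B cells had 4.97 CPM of Ndrg1, against 15.4 CPM in the control (log2 -1.04). Plod2 had 0.585 CPM from 2 UMIs there, against 6.25 CPM in the control (log2 -1.01 with 5 CPM added, and a counting interval of -6.50 to -1.49 for the ratio without them). Among the lymphocytes Vegfa was highest in NK cells of every library, with 290.5, 321 and 371 CPM. In Trdc+ T cells of the knockout and drug library it was called lower, with 15.6 CPM, against 39.3 CPM in the control (log2 -1.10).

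Epithelial cells (an Epcam UMI and no Ptprc) numbered 190, 118 and 448 and were read as a further class, with genes of alveolar type 2 and airway cells at 185057, 183292 and 237031 CPM. The make-up of the class differed between libraries, since Sftpc, of alveolar type 2 cells, had 34169 and 27715 CPM in the irradiated libraries, against 98178 CPM in the control, and Scgb1a1, of airway club cells, 144248 and 149468 CPM, against 120595 CPM. Basophil or mast cell genes summed to 307 CPM in the knockout and drug library, all 4 detected, against 0.399 CPM in the irradiated wild-type and 0.157 CPM in the non-irradiated library, with 1 of 4 detected in each. The part of these in the epithelial values was not tested. Eno1 was called higher in both irradiated libraries, with 80.2 CPM (70.3 to 91.1) in the knockout and drug and 98.8 CPM (86.9 to 112) in the irradiated wild-type library, against 27.0 CPM (23.1 to 31.3) in the non-irradiated library. The log2 ratios were 1.41 and 1.70, and the intervals of the irradiated libraries overlap each other and lie above the control. Slc16a3 was also called higher in both, with 21.7 and 20.3 CPM, against 6.27 CPM (log2 1.24 and 1.17), and 3 cells held 43.8% and 47.1% of its UMIs in the irradiated libraries. Adm was called higher in the knockout and drug library, with 49.4 CPM there and 27.5 CPM in the irradiated wild-type library, against 19.6 CPM (log2 1.15).

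In epithelial cells Epas1 and Pdk1 were called lower. Epas1 had 82.2 CPM in the knockout and drug library and 214 CPM in the irradiated wild-type library, against 370.2 CPM in the non-irradiated library (log2 -2.11 and -0.78), and the knockout and drug value was also called lower than the irradiated wild-type one (log2 -1.33). Pdk1 had 6.38 CPM in the irradiated wild-type library, against 19.0 CPM in the non-irradiated one (log2 -1.07). Calls were common in this class: 5.87% of all genes were higher and 5.15% lower for the knockout and drug library over the control, 6.61% and 6.48% for irradiated wild-type over the control, and 1.8% and 0.765% for the knockout and drug over the irradiated wild-type library. The list had 3 of 29 higher and 1 lower, 2 of 29 higher and 1 lower, and 0 of 26 higher and 1 lower in these pairs. Endothelial genes outside the aerocyte list summed to 45.3 and 51.4 CPM in the epithelial cells of the irradiated libraries, against 419.9 CPM in the control, and their part in the Epas1 values was not tested.

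Within each library, T cells with a UMI of Mki67 or Top2a, genes of dividing cells, were set against the other T cells. They numbered 665, 395 and 205, or 13.0%, 14.8% and 11.0% of T cells. The ratios of the lower glycolytic enzymes lay above 0 in all 3 libraries, with few calls. Tpi1 had 92.3 CPM in dividing and 36.1 CPM in other T cells of the knockout and drug library (log2 1.24), 121 and 35.7 CPM in the irradiated wild-type library (1.63), and 66.9 and 37.3 CPM in the non-irradiated library (0.77). Ldha had 370.0 and 225 CPM, 477 and 209.9 CPM, and 368 and 222 CPM in the same order (log2 0.71, 1.17 and 0.72). Pgk1, Pgam1, Eno1, Pkm, Gapdh and Aldoa were above 0.5 in each library too. The other genes tested lay between -0.86 and 0.43, with Hk2 at -0.16, -0.41 and 0.20 and Hif1a at -0.02, -0.21 and -0.02.

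The calls among dividing T cells were 1 of 29 genes tested in the knockout and drug library (Tpi1), 5 of 26 in the irradiated wild-type library (Tpi1, Pgk1, Pgam1, Eno1 and Ldha) and 0 of 27 in the non-irradiated library, where 1.93%, 3.45% and 2.26% of all genes were called higher. None of the list was called lower, as were 0.196%, 0.283% and 0.492% of all genes. The medians over the list were 0.20, 0.29 and 0.07, beside 0.02, -0.06 and -0.05 over all genes. In Trdc+ T cells alone they were 0.18, 0.03 and -0.02, beside -0.02, -0.09 and -0.18. Among T cells without Trdc, those with Cd8a or Cd8b1 and no Cd4 had 0.32, 0.44 and 0.29. Those with Cd4 and no Cd8a or Cd8b1 had 0.29, 0.19 and 0.43. The part of these subsets in the pooled values was not tested. Whether the size of the differences between dividing and other T cells differs between the libraries was not tested. The plot of dividing against other T cells sets the lower enzymes beside the rest of the list.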

How the data were processed

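Lung cells were profiled with 10x 3′ libraries that carry UMIs, per the labels' protocols. As deposited, the values are whole UMI counts for each gene and barcode, with no normalization by the authors. The matrix header gives software version 3.1.0 without a name, per the file headers, and the build is mm10, per the submitters' processing notes. No source used here names the aligner or the cell caller. No column of per-sample values was left unmapped.

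The members, gates and lists were chosen with earlier results of these data known. Cells with fewer than 250 genes, or over 15% of UMIs on the 13 mitochondrial genes, were left out, and a barcode could pass several gates. Doublets were kept in the main values. Scrublet in scanpy 1.11.5 scored them per library, and the alternative removed 0.8% per 1000 barcodes (782, 270 and 1371 kept cells of the knockout and drug, irradiated wild-type and non-irradiated libraries). Of the kept cells, 196, 73 and 386 passed gates of 2 lineages.

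UMIs were summed over a class and divided by its total to give CPM, with exact Poisson 95% intervals, and shares have exact binomial intervals. Both cover counting error only, and 3 UMIs stand for the upper limit of a count of 0. Ratios have 5 CPM added on both sides, so they understate differences of genes with low values. Within each class and pair all genes were compared, and every member at least 2-fold apart with 30 UMIs in the library with the higher CPM is named. Other pathway genes are named where they met the same rule, at most 3 per class and pair, together with Vegfa. One gene that met this rule is not reported here.

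Comparisons between libraries used 1 library per group, so no test was run. The scoring was tested on simulated counts: calls of strong decreases were often missed for genes at low CPM, because of the added CPM, and in the small aerocyte class counting noise alone gave calls among genes set to be equal. The alternatives were other added CPM, median-of-ratios scaling, equal weight per cell, thinning to 1000 UMIs, a limit of 10% mitochondrial UMIs, removal of doublets or dividing cells, female cells, raised gates, and a minimum of 10 UMIs. Further ones, chosen after seeing the data, were fibroblasts with Tcf21 or with Pi16 or Dpt, aerocytes with Cdh5 or Pecam1 and no Ptprc, and cells with at least 3000 UMIs.

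Gene positions follow GENCODE on GRCm38. Aldoa joins 2 feature IDs, and the annotation names pseudogene copies of Pgk1, Aldoa, Gapdh, Ldha, Pgam1 and Bnip3l, whose shared reads make these counts less certain. Analyses used matplotlib 3.10.9, pandas 2.3.3, scipy 1.17.1 and numpy 2.4.6 under python 3.11.15.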

Additional observations from a re-analysis of the deposited data

Results flagged for a closer look

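Several genes stood at least 1.5-fold higher in one cell class and at least 1.5-fold lower in another for the same pair of libraries. These differences between classes were not tested, since each group has 1 library. Hk2, the inducible hexokinase, stood at 0.87 in fibroblasts and at -0.68 in Trdc+ T cells on the log2 scale, for irradiated wild-type over non-irradiated. For the knockout and drug library over the non-irradiated one, Ldhb, the lactate dehydrogenase that favours pyruvate, stood at 1.29 in C1q+ cells and at -0.81 in Trdc+ T cells. Slc16a3, the lactate exporter, stood at 0.66 in fibroblasts and at -1.12 in C1q+ cells. In the knockout and drug fibroblasts 3 cells held 40.8% of its 98 UMIs, and 3.32% of cells had one, against 3.22% in the control. Neutrophil genes summed to 2682 CPM in these fibroblasts, against 272 CPM in the control, and their part in this value was not tested. P4ha1, a collagen prolyl hydroxylase, stood at 0.70 in aerocytes, at -0.67 in T cells and at -0.65 in B cells.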

How the results depend on the processing

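No paired analysis was possible because each group has 1 library. Over all alternatives, list medians and counts gave 306 values, of which 288 stayed near the reported one, 15 moved and 3 changed sign, and single genes gave 636, of which 536 stayed, 99 moved and 1 changed sign. For knockout and drug over non-irradiated, the 6 higher combinations became 3 with 20 CPM added and 0 in thinned cells, and the 8 lower ones became 3 in thinned cells and 4 without Scrublet doublets. For irradiated wild-type over non-irradiated, the 6 lower combinations became 11 with 1 CPM added and 1 without Scrublet doublets, and the 0 higher ones became 1 with 1 CPM added. Between the irradiated libraries, the 0 higher combinations became 2 with 1 CPM added, 1 in thinned cells and 1 with a minimum of 10 UMIs, and the 0 lower ones became 1 without Scrublet doublets. The T cell median for knockout and drug over irradiated wild-type was -0.0040 with median-of-ratios scaling and 0.0046 without dividing cells. The aerocyte median for knockout and drug over non-irradiated was 0.11 with equal weight per cell, 0.089 in cells with Cdh5 or Pecam1 and no Ptprc, and -0.68 in thinned cells, where Epas1 alone could be read. For the same pair the median in Trdc+ T cells was 0.075 in thinned cells, that in fibroblasts was -0.050 among cells with Tcf21, and Ldhb in C1q+ cells was -0.18 in thinned cells. The causes were not tested. In aerocytes the 3 higher calls of that pair became 7 without cells in 2 lineage gates and 5 without Scrublet doublets. These choices left 47 and 48 knockout and drug aerocytes, and the share of all genes called is not given for them. Ankrd37 stayed between 1.97 and 3.17 and Bnip3 between 1.55 and 2.30 in aerocytes. Depth limits the aerocyte and C1q+ cells most, where many genes rest on under 30 UMIs.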
